A study of Mus musculus with 12 samples.

Results

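The apolipoprotein L (Apol) genes measured here were Apol6, Apol7a, Apol7b, Apol7c, Apol8, Apol9a, Apol9b, Apol10a and Apol10b. These 9 genes, of 55416 in each table, were taken by gene symbol, and they were chosen on measured values, since their CORT against Veh differences in both tissues were known when the set was proposed. Those differences are therefore given as a description, without p-values. The tables hold 14 genes whose symbol starts with Apol and a digit, and the remaining 5 (Apol7d, Apol7e, Apol10c-ps, Apol11a and Apol11b) are named only where they bear on a member.

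RNA-seq was made from the duodenum and the liver of male C57BL6/J mice that were 8 weeks old at the start. The CORT group received daily subcutaneous corticosterone, the main glucocorticoid of rodents, at 40 mg/kg over 8 weeks, and the Veh group was injected with vehicle on the same schedule. No allele was altered in either group. Each of the 4 groups (duodenum Veh, duodenum CORT, liver Veh, liver CORT) has 3 libraries of 50 mg tissue, 12 in all, named here Veh1 to Veh3 and CORT1 to CORT3. The labels call them biological replicates and do not say whether a duodenum and a liver library came from the same mouse. A sample of whole tissue holds many cell types, so fewer cells of a type and less RNA per cell cannot be told apart.

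Apol proteins are relatives of the human trypanosome-lysing factor APOL1, which circulates on high-density lipoprotein. Mice lack a counterpart of APOL1, and their own Apol genes, multiplied by duplication, encode proteins that mostly stay inside the cell. Several of them, with Apol9a and Apol9b the best known, are induced by interferon. Type I interferons signal through Ifnar1 and Ifnar2, the kinases Jak1 and Tyk2, and a complex with Stat2 and Irf9 that binds the interferon-stimulated response element (ISRE), whereas interferon-gamma acts on a different element (GAS). Glucocorticoids act through a nuclear receptor that binds the glucocorticoid response element (GRE) and are known to dampen inflammatory gene expression.

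All 9 members lie on chromosome 15 in the RefSeq annotation, among 13 Apol genes of that chromosome, in the order Apol6, Apol7a, Apol9a, Apol7b, Apol10a, Apol11a, Apol7c, Apol10b, Apol11b, Apol10c-ps, Apol7e, Apol9b and Apol8. The copies that carry the same number are therefore not all neighbours. The coding sequences of Apol9a and Apol9b were 98.49% identical, and 22.48% of the 150-base stretches of Apol9b transcripts, the length of a read, also occur in Apol9a transcripts. Seen from Apol9a, which has longer transcripts, the shared portion was 7.102%. Apol7b shared 43.77% of its 150-base stretches with Apol7e, a gene outside the set, and their coding sequences were 98.92% identical. How reads that fit both copies were divided cannot be read from the tables, so the separate levels of Apol9a and Apol9b, and that of Apol7b, are uncertain. Apol10a and Apol10b were only 71.76% identical, Apol7a and Apol7c 80.14%, and these 4 genes, like Apol6 and Apol8, shared no such stretch with another Apol gene.

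The letters before the start sites are shown for 6 members because the results turn on Apol9a, Apol9b, Apol10a and Apol7a, and because Apol7c and Apol10b are the related copies for comparison. Each line gives 100 bases, 5′ to 3′ on the gene's strand, from RefSeq (GRCm38.p6, another build than the GRCm39 named for the tables). Where the ISRE core occurs the line ends with it, otherwise it ends at the base before the start site. Capitals mark matches to the ISRE core, GAAANNGAA, which reads TTCNNTTTC on the opposite strand.
Apol9a, chr15:77411124-77411223, minus strand: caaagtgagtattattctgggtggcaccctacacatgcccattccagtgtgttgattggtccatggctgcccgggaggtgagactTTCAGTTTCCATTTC
Apol9b, chr15:77728951-77729050, plus strand: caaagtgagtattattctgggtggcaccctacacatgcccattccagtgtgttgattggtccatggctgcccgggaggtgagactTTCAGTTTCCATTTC
Apol10a, chr15:77476906-77477005, plus strand: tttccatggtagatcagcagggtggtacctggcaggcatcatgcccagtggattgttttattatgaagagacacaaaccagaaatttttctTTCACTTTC
Apol7c, chr15:77533355-77533454, minus strand: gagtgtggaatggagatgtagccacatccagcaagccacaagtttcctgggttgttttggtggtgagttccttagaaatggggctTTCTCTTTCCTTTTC
Apol10b, chr15:77596126-77596225, minus strand: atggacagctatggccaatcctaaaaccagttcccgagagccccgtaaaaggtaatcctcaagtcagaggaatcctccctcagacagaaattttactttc
Apol7a, chr15:77399111-77399210, minus strand: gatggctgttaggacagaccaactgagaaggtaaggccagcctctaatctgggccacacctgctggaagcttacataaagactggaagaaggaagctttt
Over these 100 bases Apol9a and Apol9b had the same letters, with 0 mismatches. In both, 2 overlapping ISRE cores lie side by side, and the last 12 bases shown are transcribed in some GENCODE transcripts. In Apol7c 2 overlapping cores were found as well, and in Apol10a 1. Of the 8 members with a promoter in the RefSeq table, 4 (Apol9a, Apol9b, Apol10a and Apol7c) held an ISRE core within 250 bases before the start site, against 7.13% of all 32851 promoters. Apol7a, Apol7b, Apol8 and Apol10b held none. The GAS letters, TTCNNNGAA, occurred in 1 member, Apol10a, against 7.02% of all promoters. The GRE core, ACANNNTGT, occurred in 0 of the 8, against 5.84%. Both strands were searched and none of these matches overlaps one of another motif. Such matches describe letters only, and Apol9a and Apol9b, being copies, are not independent.

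Values were deposited as TPM, which correct for transcript length and scale each library to about the same total (983327 to 997319). They carry no read depth, so counting error cannot be stated. Levels are compared as log2(TPM + 1), and a difference of 1 on this scale is a 2-fold change except for low genes, whose change it understates. Genes whose mean reached 1 TPM in at least 1 group of a comparison were fitted with limma, and a gene is called when its Benjamini-Hochberg adjusted p is 0.05 or less and its fold change is over 1.5. For some lists, counts at an unadjusted p under 0.05 are also given. The share of all genes at that limit is not given here, so no excess is read from these counts.

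The glucocorticoid response was present in both tissues. Fkbp5, a chaperone of the glucocorticoid receptor and one of its best-known targets, rose in the duodenum from 15.4 ± 7.41 to 304 ± 66.7 TPM (SD, n = 3; limma adjusted p = 0.00450) and in the liver from 13.1 ± 6.19 to 248 ± 26.1 TPM (adjusted p = 0.00178). Tsc22d3, which encodes the glucocorticoid-induced leucine zipper, rose in the duodenum by 2.01 ± 0.25 (log2, SE; adjusted p = 0.0185). In the liver its difference was 1.92 ± 0.49 (adjusted p = 0.0623), which missed the threshold. Hepatocyte markers were abundant in all liver libraries (summed TPM from 108898 to 139980) and enterocyte markers in all duodenum libraries (26414 to 49854).

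The duodenum Veh libraries did not look alike. The 18 pancreatic acinar markers (digestive enzymes and their relatives) summed to 39618 TPM in Veh2 and 31629 TPM in Veh3, against 185 TPM in Veh1 and 145 to 322 TPM in the CORT libraries. Differences of most members, and of the type I and interferon-gamma lists between CORT and Veh, are therefore also given without Veh2 and Veh3. In that fit Veh1 alone stands for its group and is assumed to vary like the libraries it is compared with. The marker sums and the plasma apolipoproteins were not fitted without Veh2 and Veh3 here.

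**Figure D1:**
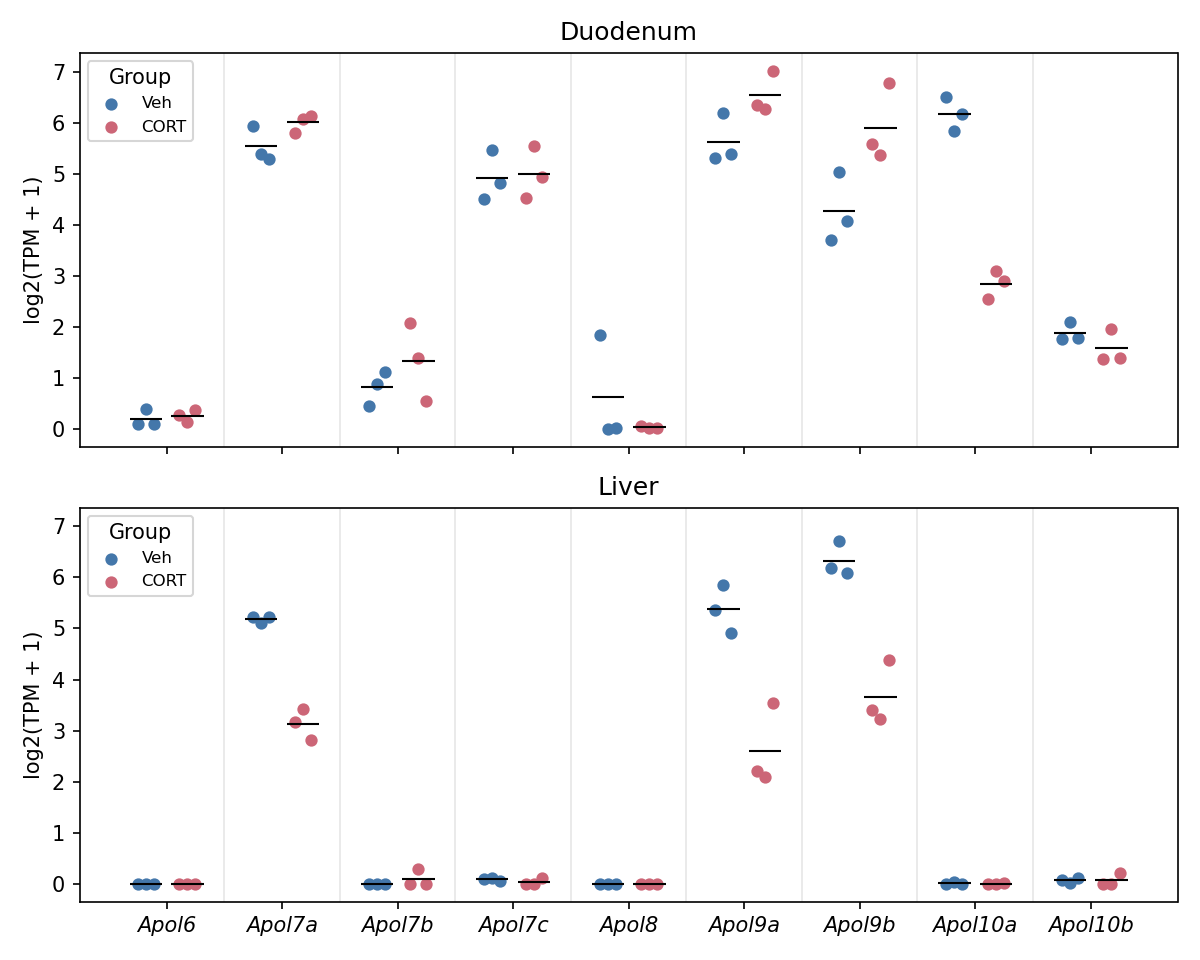
Level of each of the 9 Apol members as log2(TPM + 1) in the duodenum (top) and the liver (bottom). Each point is 1 library, blue for Veh and red for CORT, and the short line is the mean of 3 libraries. Apol10a in the duodenum and Apol7a, Apol9a and Apol9b in the liver sit lower in every CORT library than in any Veh library.

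In the Veh duodenum the set was carried by 5 genes. Apol10a had the highest mean, 72.4 ± 16.8 TPM (SD, n = 3), followed by Apol9a (50.4 ± 18.5), Apol7a (46.3 ± 11.96), Apol7c (30.6 ± 11.0) and Apol9b (19.9 ± 10.5). The ranges of neighbours in this order overlapped. Among these 5 genes the ranges were apart for Apol10a against Apol7c and Apol9b, and for Apol9a and Apol7a against Apol9b. Apol10b followed at 2.71 ± 0.517 TPM, and Apol7b, Apol8 and Apol6 had means of 0.807, 0.88 and 0.153 TPM.

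Liver used a shorter repertoire. Apol9b was highest at 80.6 ± 20.3 TPM in the Veh libraries, before Apol9a at 42.1 ± 13.9 and Apol7a at 35.5 ± 1.66. Apol9b lay above both others in every Veh library, whereas the ranges of Apol9a and Apol7a overlapped. Each of the other 6 members stayed at or below 0.22 TPM in all 6 liver libraries, and Apol6 and Apol8 were listed at 0 in all of them.

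The comparison of the Veh duodenum with the Veh liver asks where the genes are used without CORT. The members were not chosen on it, but it uses the same Veh libraries as the CORT comparisons they were chosen on. The values of the members are therefore a description here too, without p-values, and a call of a member is no test. Of all 14134 genes fitted, 67.4% were called, 53.0% higher in duodenum and 14.4% higher in liver. Of the 6 members fitted, Apol7c, Apol10a and Apol10b passed the filter through the duodenum alone, which fixed their direction. Apol7a, Apol9a and Apol9b passed it in both tissues, and 1 of these 3, Apol9b, was called, higher in liver.

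Apol10a read 89.94, 56.42 and 70.71 TPM in the duodenum Veh libraries and 0, 0.03 and 0 TPM in the liver Veh libraries. The tissues did not overlap, and the difference was 6.16 ± 0.18 (log2, SE). Apol7c, a gene described in dendritic cells, read 21.67, 42.95 and 27.29 TPM in duodenum and at most 0.08 TPM in liver. Its difference was 4.84 ± 0.24. Apol10b was lower in level but equally separated, with 2.39, 3.31 and 2.44 TPM against at most 0.08 TPM, a difference of 1.81 ± 0.17.

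Apol9b went the opposite way, with 11.99, 31.77 and 15.79 TPM in duodenum and 71.41, 103.87 and 66.52 TPM in liver. Its difference was -2.05 ± 0.35 (log2, SE). Apol9a, its near-identical copy, had overlapping levels of 38.61, 71.77 and 40.88 TPM against 40.3, 56.72 and 29.15 TPM (difference 0.25 ± 0.31, not called). Apol7a, at 60.03, 40.99 and 37.97 TPM against 36.48, 33.57 and 36.41 TPM, was not called either (0.35 ± 0.18).

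Scaling each library by its median ratio moved the median of all genes in this comparison from 0.72 to 0.067. The call of Apol9b (-2.84) was kept, and the differences of Apol10a, Apol7c and Apol10b became 5.74, 4.40 and 1.49, while Apol9a and Apol7a changed sign (-0.55 and -0.46) without being called. Without Veh2 and Veh3 of the duodenum Apol9b was at -2.62 and still called, Apol9a was at -0.070, and Apol7a (0.74) was called. The split of calls over all genes went from 78.7% higher in duodenum to 54.0% with the other scaling.

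The balance between the 2 Apol9 copies differed between tissues. In the duodenum Veh libraries Apol9a stood at 3.22, 2.26 and 2.59 times Apol9b, and in the liver Veh libraries at 0.564, 0.546 and 0.438 times. In the liver CORT libraries the ratio was 0.378, 0.388 and 0.538, and in the duodenum CORT libraries 1.73, 1.88 and 1.18. Apol9a thus led in all 6 duodenum libraries and Apol9b in all 6 liver libraries, as far as reads can be assigned to copies this similar.

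CORT against Veh in the duodenum asks which members differ with treatment in the intestine. Of the 9 members 7 passed the filter, and 1 of these, Apol10a, was past the limits of a call, on the lower side. Over all 13607 genes fitted, 2.15% were called, 1.23% higher and 0.919% lower. Since the members were chosen on this difference, a call of a member here is a description and no test, and nothing is read from the count.

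Apol10a read 89.94, 56.42 and 70.71 TPM with Veh and only 4.85, 7.51 and 6.5 TPM with CORT. All 3 CORT libraries were far below all 3 Veh libraries. The mean was 11.5-fold lower with CORT (6.29 ± 1.34 against 72.4 ± 16.8 TPM, SD, n = 3), a difference of -3.32 ± 0.21 (log2, SE). Leaving out any single library kept it between -3.49 and -3.16. Without Veh2 and Veh3 the difference was -3.66, but it was no longer called, and only 10 of all genes were called in that fit.

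Its relative Apol10b did not follow. Apol10b read 2.39, 3.31 and 2.44 TPM with Veh and 1.61, 2.89 and 1.65 TPM with CORT, overlapping ranges, with a difference of -0.30 ± 0.22. The pseudogene Apol10c-ps, which is not a member, read 15.36, 4.64 and 4.64 TPM against 0.29, 0.73 and 1.69 TPM, a difference of -2.15 ± 0.47 that was not called although the groups did not overlap. With the Apol10 genes summed, the difference was -3.03.

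Apol9a, which in the mouse is known as an interferon-induced gene with antiviral activity, read 38.61, 71.77 and 40.88 TPM in the Veh libraries and 80.85, 75.57 and 128.19 TPM in the CORT libraries. Every CORT value exceeded every Veh value, although Veh2 came within a few TPM of CORT2. The means were 50.4 ± 18.5 and 94.9 ± 29.0 TPM, a difference of 0.92 ± 0.30 that was not called. Apol9b read 11.99, 31.77 and 15.79 TPM with Veh and 46.76, 40.22 and 108.59 TPM with CORT. Here too the groups did not overlap, and CORT3 was the highest library, as it was for Apol9a. The means were 19.9 ± 10.5 and 65.2 ± 37.7 TPM, 3.28-fold apart, and the difference of 1.64 ± 0.46 was not called. The copies added together gave 1.17, also not called. Without Veh2 and Veh3 the differences were 1.23 for Apol9a and 2.21 for Apol9b, neither of them called.

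Apol7a had overlapping ranges, 60.03, 40.99 and 37.97 TPM with Veh and 55.03, 66.52 and 69.37 TPM with CORT (0.47 ± 0.20). Apol7c was nearly level, at 21.67, 42.95 and 27.29 TPM against 22.13, 45.69 and 29.57 TPM (0.076 ± 0.32), and its sign turned without CORT2 (-0.19) or Veh1 (-0.14). Apol7b was low and variable, at 0.38, 0.86 and 1.18 TPM against 3.23, 1.65 and 0.47 TPM (0.52 ± 0.40). None of these 3 was called. Without Veh2 and Veh3 the values became 0.076 for Apol7a, 0.50 for Apol7c and 0.88 for Apol7b. Apol6, a member linked to cell death in human cells, stayed between 0.07 and 0.32 TPM and was not fitted. Apol8 was at 2.62 TPM in Veh1 and at most 0.04 TPM in each of the other 5 duodenum libraries, and it was not fitted either.

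Of the 7 members fitted, 3 (Apol10a, Apol9a and Apol9b) had groups without overlap. This held for 26.4% of all genes fitted in the duodenum.

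**Figure D2:**
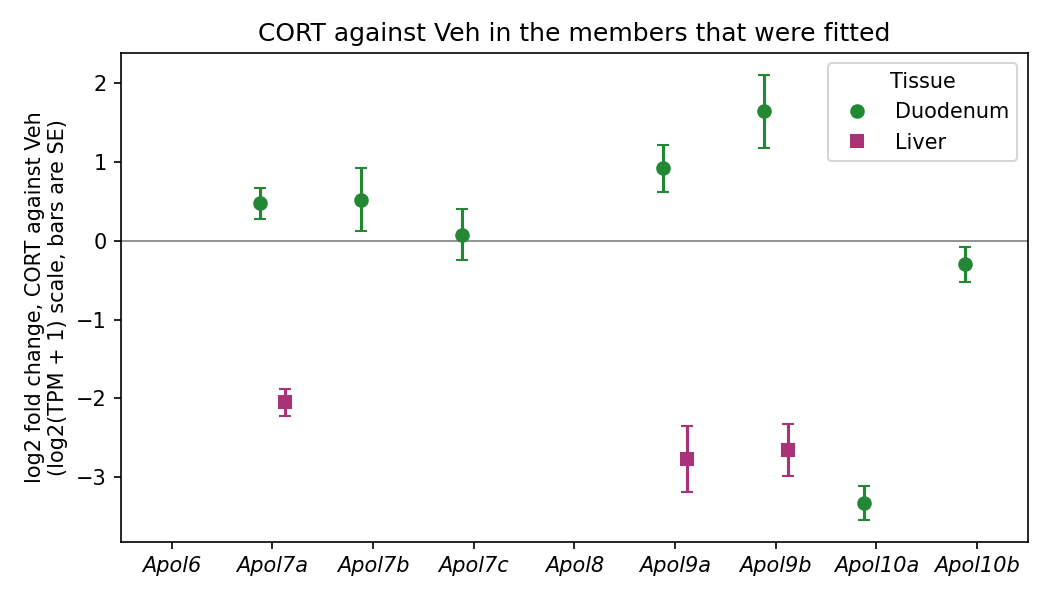
Difference between CORT and Veh in the duodenum (green circles) and the liver (purple squares) for the members that passed the filter, on the log2(TPM + 1) scale. Bars are the standard error of the limma fit over 3 against 3 libraries. Apol9a and Apol9b lie above 0 in the duodenum and below -2 in the liver.

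In the liver 3 members passed the filter, Apol7a, Apol9a and Apol9b, and these 3 were past the limits of a call, on the lower side. Over all 11699 genes fitted, 6.92% were called, 4.91% higher and 2.01% lower. Median-ratio scaling turned the split of calls over all genes from 71.0% higher to 53.8% higher. As in the duodenum, the members were chosen on this difference, and nothing is read from the count.

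Apol7a read 36.48, 33.57 and 36.41 TPM in the liver Veh libraries and 7.97, 9.77 and 6.06 TPM in the CORT libraries. The Veh libraries lay within 3 TPM of each other and far above the CORT libraries. The means were 35.5 ± 1.66 and 7.93 ± 1.86 TPM, 4.47-fold apart, with a difference of -2.05 ± 0.17 (log2, SE). Over the alternative fits it lay between -2.20 and -1.89.

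Apol9b read 71.41, 103.87 and 66.52 TPM in the liver Veh libraries and 9.52, 8.36 and 19.8 TPM in the CORT libraries. All CORT libraries were below all Veh libraries, and CORT3 was the highest of the treated group. The means were 80.6 ± 20.3 and 12.6 ± 6.30 TPM, 6.42-fold apart, with a difference of -2.66 ± 0.33. The alternative fits gave -3.01 to -2.44.

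Apol9a read 40.3, 56.72 and 29.15 TPM in the liver Veh libraries against 3.6, 3.24 and 10.65 TPM with CORT. The order of the libraries within each group was that of Apol9b, with Veh2 and CORT3 on top. The means were 42.1 ± 13.9 and 5.83 ± 4.18 TPM, 7.21-fold apart, with a difference of -2.77 ± 0.42. Leaving out CORT1 (-2.56) or Veh1 (-2.77) ended the call. So did the fit without the filter on low values and the fit with the replicate number as a block. The alternative fits gave -3.23 to -2.51. The sum of both copies gave -2.77.

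The values of these 3 members did not overlap between the liver groups, which held for 32.2% of all genes fitted in the liver. The remaining 6 members were at or near 0 in every liver library and were not fitted.

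Summed over the 9 members, the level in the duodenum was 224 ± 26.2 TPM in Veh and 267 ± 68.9 TPM in CORT (SD, n = 3), with overlapping libraries. Its makeup shifted. Apol10a held 39.5%, 22.7% and 36.0% of the sum in the Veh libraries and 2.26%, 3.13% and 1.89% in the CORT libraries. Apol9a and Apol9b together held 22.2%, 41.7% and 28.9% in Veh and 59.4%, 48.2% and 68.7% in CORT. In the liver the sum itself was lower with CORT, 26.5 ± 8.91 against 158 ± 32.2 TPM, and the Apol9 pair held 66.3 ± 14.96% of it in CORT and 76.8 ± 5.30% in Veh.

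**Figure D3:**
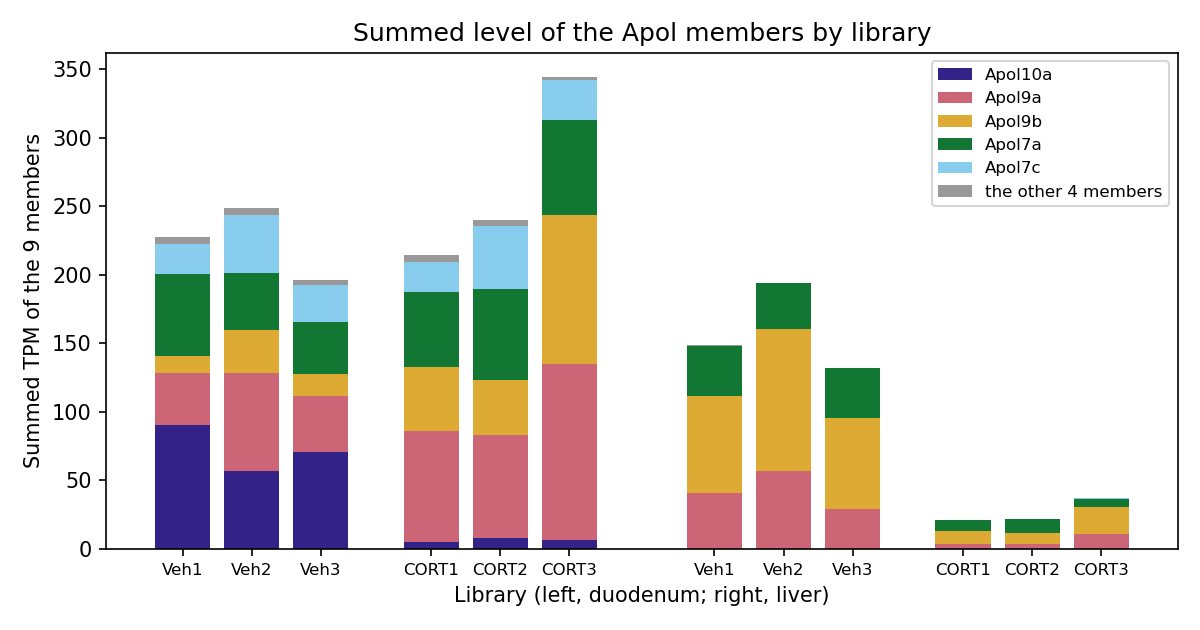
Summed TPM of the 9 Apol members in each of the 12 libraries, stacked by gene. In the duodenum the dark Apol10a segment shrinks from 56.4 to 89.9 TPM in the Veh libraries to 4.85 to 7.51 TPM in the CORT libraries while the sums of both groups overlap, and in the liver the whole bar is shorter in each CORT library (21.1 to 36.8 TPM) than in any Veh library (132 to 194 TPM).

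Marker lists of other cell types moved along with some members in the duodenum. The 7 B and plasma cell markers summed to 828 to 1030 TPM in the Veh libraries and to 229 to 545 TPM in the CORT libraries, the same direction as Apol10a. Most of that sum was Jchain, the joining chain of secreted antibodies (785 to 965 against 212 to 488 TPM), and Mzb1, a plasma cell chaperone, went from 28.2 to 45.9 down to 8.03 to 18.5 TPM, whereas by sign 4 of the 6 fitted were lower and 2 higher, and the B cell marker Ms4a1 was at or below 3.79 TPM in every duodenum library. The 12 enterocyte markers summed to 39428 TPM in Veh1, to 26414 and 26948 TPM in the acinar-rich Veh2 and Veh3, and to 45595 to 49854 TPM with CORT. This was the same direction as Apol9a and Apol9b. That sum was carried by Apoa4 (7906 to 12570 TPM with Veh, 16882 to 21545 TPM with CORT), Fabp1 (6814 to 10617 against 13051 to 13900 TPM) and Fabp2 (2204 to 3360 against 4153 to 6356 TPM), which serve fat absorption. By sign 7 of the 12 were higher and 5 lower, and the brush-border genes Vil1 (959 to 1436 against 839 to 1134 TPM) and Anpep (1914 to 5238 against 1709 to 2499 TPM) overlapped. T cell markers (71.7 to 102 TPM with Veh, 69.4 to 83.9 TPM with CORT) and dendritic cell markers (13.6 to 22.9 against 11.3 to 15.6 TPM) overlapped between the groups. In limma 0 genes were called in the B and plasma cell, enterocyte, T cell and dendritic lists, and 1 of 8 was called higher in the macrophage list. It was Clec4f, a marker of Kupffer cells, at 0 to 0.15 TPM with Veh and 5.31 to 10.29 TPM with CORT, named after its values were seen. At an unadjusted p under 0.05, 2 of 6 B and plasma cell genes were lower and 5 of 12 enterocyte genes were higher. Their part in the results of the members was not tested.

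**Figure D4:**
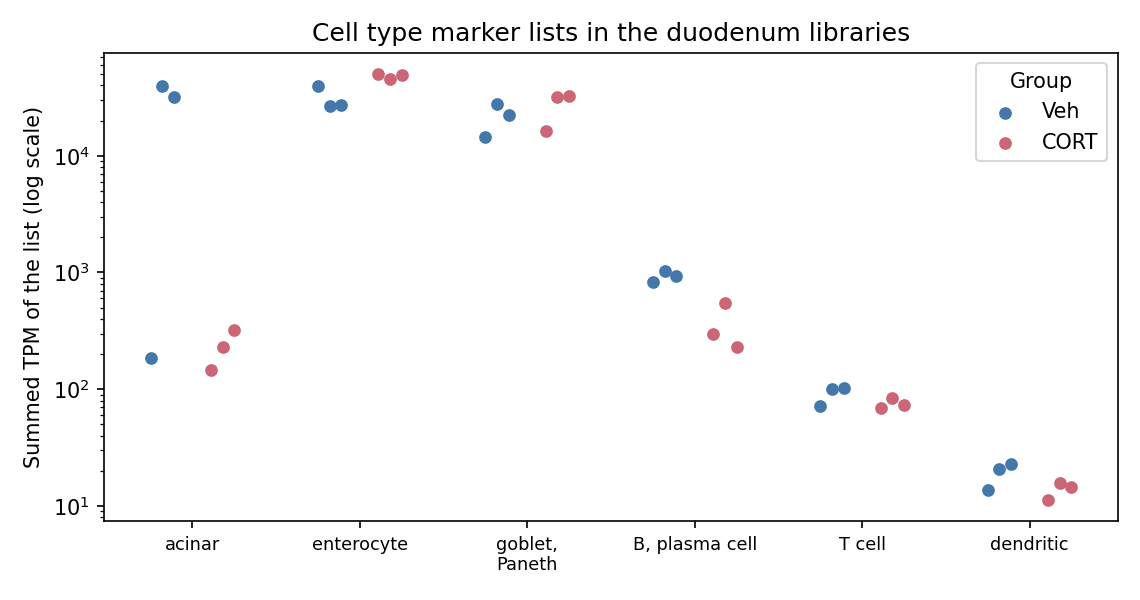
Summed TPM of 6 lists of cell type markers in the 6 duodenum libraries, on a log scale. Each point is 1 library, blue for Veh and red for CORT. The acinar list is high in 2 Veh libraries (39618 and 31629 TPM), the B and plasma cell sum, mostly Jchain, is lower in all CORT libraries, and the enterocyte sum, led by Apoa4 and Fabp1, is higher in all of them.

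In the liver, the sums of lymphocyte markers were low and were also lower with CORT. The 8 T cell markers summed to 2.61 to 5.6 TPM in Veh and 0.43 to 1.52 TPM in CORT, and the B and plasma cell markers to 2.58 to 8.61 against 0.22 to 1.12 TPM. Of the T cell markers 0 reached the filter. Of the 7 B and plasma cell markers 3 were fitted in limma and 0 were called, with 3 lower at an unadjusted p under 0.05. Hepatocyte markers overlapped between the groups (108898 to 139980 and 121956 to 131194 TPM). Their part in the results was not tested.

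The interferon-response genes give the setting of Apol9a and Apol9b, and 39 genes typical of type I interferon were followed. In the duodenum all 39 were fitted with limma and 0 were called. By sign 35 were higher and 4 lower with CORT, with a median of 0.48 against -0.012 over all genes, and 9 were higher and 0 lower at an unadjusted p under 0.05. Usp18, an inhibitor of interferon signalling, had the largest difference of the list, at 1.85 ± 0.47 (adjusted p = 0.0997), a gene chosen after its values were seen. Without Veh2 and Veh3 the median was 0.87, without Veh1 it was 0.24 and without CORT3 0.33, with 0 genes called each time.

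In the liver most signs of the same list were the opposite. Of the 30 genes fitted, 26 were lower and 4 higher by sign, with a median of -0.52 against 0.078 over all genes. Limma called 8 lower and 0 higher. Rtp4, an interferon-induced chaperone of receptors, fell from 9.79 ± 1.59 to 3.14 ± 0.492 TPM (limma adjusted p = 0.00693). Ifit3, which binds partners that sense viral RNA, fell from 7.14 ± 1.37 to 2.26 ± 0.431 TPM (adjusted p = 0.0100). Xaf1, a proapoptotic interferon target, fell from 8.35 ± 1.03 to 2.84 ± 0.851 TPM (adjusted p = 0.0126), and Irf7, a master factor of interferon production, fell from 19.3 ± 1.97 to 9.87 ± 1.5 TPM (adjusted p = 0.0199). Median-ratio scaling kept the sign of both medians (0.48 in duodenum, -0.58 in liver). The number of called genes in this liver list went down to 2 without CORT1, 3 without Veh1, 4 without Veh3 and 5 without CORT2 or Veh2.

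The list was read library by library as the mean of log2(TPM + 1) over its 39 genes. In the duodenum it was 3.64, 4.67 and 4.04 in Veh1 to Veh3 and 4.52, 4.41 and 4.85 in CORT1 to CORT3, so the groups overlapped through Veh2. Veh2 was also the Veh library with the most Apol9a and Apol9b, and CORT3 the CORT library with the most. In the liver it was 2.17, 2.47 and 2.13 with Veh and 1.67, 1.83 and 1.81 with CORT, with no overlap. Liver Veh2 again held the most Apol9a and Apol9b of its group, whereas CORT3, with the most of the CORT libraries, was not the highest of them in the list mean.

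The difference between tissues was tested gene by gene in a limma fit of all 12 libraries, and no list was tested as a whole. The lists were chosen with earlier results of these data known, so they are not independent evidence. In this fit 3.60% of 14806 genes were called. Of the 39 type I genes, 4 had a CORT effect that was higher in duodenum than in liver: Ifit1 (2.20 ± 0.47, adjusted p = 0.0309), Rtp4 (2.18 ± 0.47, adjusted p = 0.0311), Mx2 (2.09 ± 0.47, adjusted p = 0.0355) and Ifit3 (1.92 ± 0.44, adjusted p = 0.0412). In the duodenum the CORT and Veh values overlapped for Rtp4, Mx2 and Ifit3 but not for Ifit1, and in the liver for none of the 4. Levels in the liver were low for Ifit1 (at most 2.53 TPM) and Mx2 (at most 3.24 TPM). The median over the list was 0.91, against -0.081 over all genes. Of the 30 genes fitted in both tissues, 24 were higher in the duodenum and lower in the liver. Apol9a and Apol9b showed the same opposite signs, but their difference between tissues was not tested because they were chosen on it. With Irf9, below, 5 interferon genes were called, and leaving out 1 library gave 1 (without duodenum CORT3 or Veh3, or liver CORT1, Veh1 or Veh2), 2 (liver CORT2 or CORT3), 3 (liver Veh3), 4 (duodenum CORT1, CORT2 or Veh1) or 14 (without duodenum Veh2). Without Veh2 and Veh3 of the duodenum it was 17.

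**Figure D5:**
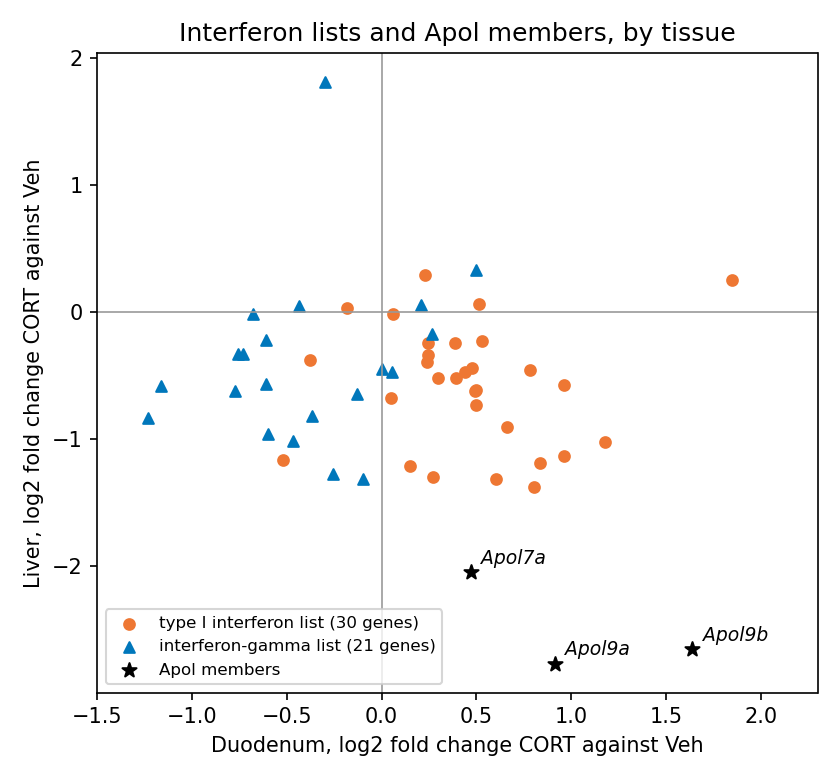
CORT against Veh in the duodenum (horizontal axis) and the liver (vertical axis), as log2 fold changes, for the genes of 2 interferon lists that were fitted in both tissues and for Apol7a, Apol9a and Apol9b (stars). Of the 30 type I genes 24 lie at the lower right, higher in duodenum and lower in liver, and so do the 3 stars, whereas 14 of 21 interferon-gamma genes lie at the lower left.

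The 30 genes typical of interferon-gamma did not share this pattern of signs. In the duodenum 23 of 30 were lower and 7 higher by sign, and limma called 3 lower and 0 higher. The 3 called genes belong to the antigen-presentation machinery. They were the immunoproteasome subunits Psmb9 (119 ± 3.94 to 50.9 ± 11.96 TPM, limma adjusted p = 0.0253) and Psmb10 (309 ± 29.2 to 141 ± 40.04 TPM, adjusted p = 0.0469), and the peptide transporter Tap2 (45.3 ± 0.328 to 26.5 ± 3.00 TPM, adjusted p = 0.0350). The median was -0.34. Without CORT1 2 remained called, without any other single library 0, and without both Veh2 and Veh3 0, with a median of -0.10. In the liver 17 of 21 were lower and 4 higher by sign, and limma called 4 lower and 0 higher. The called genes were the immunity-related GTPases Irgm2 (-1.31 ± 0.25, adjusted p = 0.0302), Iigp1 (-0.96 ± 0.19, adjusted p = 0.0327) and Igtp (-1.02 ± 0.22, adjusted p = 0.0406), and Psmb9 (-0.84 ± 0.17, adjusted p = 0.0330). The median in the liver was -0.47, and the calls went to 0 without CORT1, Veh1 or Veh3, 1 without CORT3 or Veh2, and 2 without CORT2. In the fit of both tissues 0 of 30 were called, with 1 higher and 3 lower at an unadjusted p under 0.05.

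Among 16 genes of interferon signalling (ligands, receptors, kinases and factors) limma called 0 of 12 fitted in the duodenum and 0 of 11 in the liver. At an unadjusted p under 0.05, 4 were higher and 1 lower in the duodenum, and 1 was higher and 3 lower in the liver. Irf9, the DNA-binding subunit of the ISRE complex, read 19.77, 26.95 and 20.46 TPM with Veh and 37.23, 32.11 and 41.06 TPM with CORT in the duodenum. In the liver it read 11.29, 10.63 and 9.99 TPM with Veh and 5.99, 4.34 and 7.61 TPM with CORT. The groups did not overlap in either tissue, and neither difference was called alone (adjusted p = 0.0850 and 0.0588). The difference between the tissues was called, at 1.46 ± 0.26 (adjusted p = 0.0119).

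In Veh mice most interferon genes were higher in duodenum than in liver. Of the type I list 32 of 39 were called higher and 1 lower, of the gamma list 22 of 29 higher and 1 lower, and of the signalling list 10 of 12 higher and 1 lower, where 53.0% of all genes were called higher. Median-ratio scaling reduced these counts of higher genes to 21 of 39, 17 of 29 and 6 of 12. With that scaling the count over all genes also went down, to 4432 of 14134 called higher. The type I gene called lower was Bst2, an antiviral membrane tether (54.8 ± 19.9 TPM in duodenum, 252 ± 55.9 TPM in liver, limma adjusted p = 0.000302), the same direction as Apol9b.

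The plasma apolipoproteins carry a similar name but are other genes than the Apol members. Of 15, limma called 1 of 11 in the duodenum, Apob, the structural protein of chylomicrons (272 ± 93.1 to 829 ± 169 TPM, adjusted p = 0.0325). Apob read 379 TPM in Veh1, and 221 and 216 TPM in the acinar-rich Veh2 and Veh3. In the liver limma called 1 of 14, Apoa4, a lipid-absorption apolipoprotein (122 ± 48.2 to 2362 ± 1667 TPM, adjusted p = 0.0239). Both rose, and the medians of the list were 0.66 and 0.060.

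The genes whose profile was most like that of a member were sought by Pearson's r of log2(TPM + 1) over the 6 libraries of a tissue. These libraries share the treatment contrast, so r is given as a description. For Apol10a in the duodenum they included Orai2, a calcium channel subunit (0.997), and Igkv1-135, an antibody light-chain segment (0.996), while Apol10b had 0.569. For Apol9b in the duodenum they were 3110056K07Rik (0.994), Proc, the anticoagulant protein C (0.991), and Tmem184b (0.990), and its copy Apol9a had 0.992. For Apol7a in the liver they were Gm5276 (0.996), Fbxl21 (0.992) and Rnf181 (0.991). For Apol9b in the liver they were Xaf1 (0.997), Gm49463 (0.996) and Snurf (0.996), with Apol9a at 0.996 and Apol7a at 0.894.

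The 5 Apol genes outside the set were low, apart from Apol10c-ps. Apol7e, which shares sequence with Apol7b, read 3.36, 4.06 and 4.52 TPM in the duodenum Veh libraries and 3.94, 5.83 and 4.16 TPM in the CORT libraries, overlapping ranges (0.17 ± 0.18). Apol7d, Apol11a and Apol11b stayed at or below 0.7 TPM in all 12 libraries.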

How the data were processed

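RNA-seq of duodenum and liver from CORT- or vehicle-treated mice was analysed, with 3 libraries per group. The authors prepared TruSeq libraries and sequenced read pairs, used SeqPrep and Sickle for trimming, HISAT2 (orientation mode) for alignment, StringTie for assembly and RSEM for quantification. The submitters' processing notes name GRCm39. Versions are not given in the sources used here. The authors deposited TPM for every gene in each single library, from which depth cannot be recovered, and no counting interval was computed. How RSEM divided reads between similar copies affects Apol9a, Apol9b and Apol7b.

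Groups and replicate numbers came from the sample labels. log2(TPM + 1) was fitted, for genes whose mean reached 1 TPM in at least 1 group, with limma 3.58.1 (lmFit, eBayes with trend) in R 4.3.3, per tissue, for Veh duodenum against Veh liver, and for both tissues with an interaction term. The tables list the same genes and were joined by identifier. P-values were adjusted by Benjamini-Hochberg over all genes fitted. P-values set each difference against the spread between these samples. The fits were tested on simulated data. Transcripts (GENCODE M21) and promoters (RefSeq) were compared with biopython 1.88.

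The members and gene lists were chosen with earlier results of these data known, so no list is independent evidence. Genes were named by a rule: all members, other Apol genes, Fkbp5 and Tsc22d3, up to 4 called genes per list and direction with the smallest adjusted p, and the 3 genes most like Apol10a, Apol9b or Apol7a. Not every gene this rule selects is printed. As alternatives, each library was left out in turn, and fits were made with the replicate number as a block, a pseudocount of 0.1, no filter, median-ratio scaling, no limit on fold change, removal of acinar genes, and summed copies. Leaving out duodenum Veh2 and Veh3 together was added after seeing the data.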

Additional observations from a re-analysis of the deposited data

Results flagged for a closer look

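The CORT against Veh differences of Apol9a and Apol9b had opposite signs in the tissues, and those in the duodenum were not called. Apol9a differed between CORT and Veh by 0.92 in the duodenum and by -2.77 in the liver (log2), and Apol9b by 1.64 and -2.66. In the duodenum every CORT library was above every Veh library, and in the liver every CORT library was below. The difference between the tissues was not tested for these members, since they were chosen on it.

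Among the interferon genes 5 had a CORT effect that was higher in duodenum than in liver in the limma interaction test: Ifit1 (2.20), Rtp4 (2.18), Mx2 (2.09), Ifit3 (1.92) and Irf9 (1.46). The number of such genes moved with single libraries, as given below.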

How the results depend on the processing

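Over all alternatives and settings run, 200 of the member log2 fold changes kept their sign and their side of the threshold or moved by less than the replicate spread, 2 moved further, 1 (Apol7a, Veh duodenum against Veh liver, without the acinar-rich libraries) became called, and 4 reversed. These 4 were in Veh duodenum against Veh liver, in members that were not called: -0.46 for Apol7a and -0.55 for Apol9a under median-ratio scaling, and for Apol9a -0.070 without duodenum Veh2 and Veh3. Leaving out 1 library took Apol9a from -0.030 (without duodenum Veh2) to 0.49. With CORT against Veh in the duodenum Apol7c, at 0.076 and not called, also turned its sign, to -0.19 without CORT2 and -0.14 without Veh1. These turns of Apol7c, and the lost calls of Apol9a in the liver, are counted among the 200.

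Without duodenum Veh2 and Veh3 the 1 member called in the duodenum became 0, the 3 interferon genes called lower there became 0, and the 5 with an effect higher in duodenum than in liver became 17. Without the filter these interferon counts became 0 and 1, and the 12 called lower in the liver became 3. Median-ratio scaling gave 20 in the liver and 11 for the difference between tissues. Leaving out 1 library gave 0 to 2 in the duodenum, 2 to 8 in the liver and 1 to 14 for the difference. With the replicate number as a block (replicate block) the counts were 0, 3 and 3, Apol10a, Apol7a and Apol9b stayed called and Apol9a in the liver did not. Same-numbered libraries did not deviate together (correlations from -0.12 to 0.073). This cannot show whether a duodenum and a liver library came from the same mouse. The main fits across both tissues treat all libraries as independent.

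Over all genes the 292 calls in the duodenum became 52 without the filter, 62 with the block, 10 without Veh2 and Veh3, and 66 to 237 without 1 library. In the liver 810 became 283, 307 and, without 1 library, 247 to 831, and the 533 of the interaction became 336 without the filter, 301 without Veh2 and Veh3, and 289 to 626 without 1 library. The cause of these shifts was not tested. Depth is unknown, so precision rests on 3 libraries per group.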
